A study of Mus musculus with 6 samples.

Results

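The sorted array held induced cells selected for green fluorescence, and it was set against the 3 arrays of unsorted induced cells, so 4 of the 6 arrays of the series were compared. The 4 were chosen by their labels. The sorted cells came from 14 days after infection (dpi), and the unsorted cells, called induced parvalbumin (iPV) neurons, from 3, 7 and 14 dpi. The other two arrays, mouse embryonic fibroblasts (MEF) and a sample that the labels call endogenous parvalbumin (PV) neurons, entered no comparison and are given only beside the results. Every group was from C57BL/6 mice carrying the PV-GFP transgene, in which green fluorescent protein (GFP) marks parvalbumin cells, and every group was labelled with embryos of 13.5 days, the one named endogenous included. The labels attach the same text on fibroblasts infected with adenovirus to every group, MEF and the endogenous sample included. There was 1 array per group. No p-value or standard error can therefore be given, and because the unsorted arrays were of different days, their spread mixes time with error.

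Parvalbumin neurons are fast-spiking inhibitory neurons that make the transmitter GABA. A fibroblast that is turned toward a neuron has to start genes of the neuronal cytoskeleton, of vesicle release and of ion channels, while matrix, contractile and cell division genes are typical of the starting cell. Selecting cells by a fluorescent reporter enriches those in which the reporter's promoter is active, and the comparison asks what such cells hold beyond what the mixed culture shows at any of the 3 days.

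Values are log2 intensities of probe sets, 1 probe set per gene. A floor of 5.01, the median over non-control probe sets of every array, replaced any value under it before differences were taken. Of 22180 genes, 13921 were above the floor on at least 1 of the 4 arrays and are called measured. A gene is called higher when the sorted array lay at least 1 log2 unit (2-fold) above the highest of the 3 unsorted arrays, and lower when it lay as far below the lowest. The distance beyond the nearest unsorted array is named the gap. Between 2 probe sets of 1 gene, the difference of sorted cells from the unsorted mean varied by 0.34 log2 units per probe set. This is the SD of their disagreement over 311 genes, divided by the square root of 2. Both probe sets lie on the same arrays, so it leaves out error between arrays and variation between cultures. It refers to the difference from the mean, not to the gap. Array medians lay between 4.96 and 5.06. The sorted array had the widest distribution, with an SD over probe sets of 2.16, against 2.06 to 2.12 on the other arrays. Its percentile 75 was 6.68, against 6.52 to 6.61 on the others. Across genes, floored values of the sorted array correlated with day 14 at r = 0.974, with day 3 at 0.969 and with day 7 at 0.968, against 0.968 with the array labelled endogenous PV and 0.94 with MEF.

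On the sorted array 80 genes were higher than on all 3 unsorted arrays and 13 were lower, 0.575% and 0.0934% of the measured genes. Against the mean of the unsorted arrays, 210 genes (1.51%) were at least 1 log2 unit higher and 64 (0.46%) as much lower. Since the range of fewer arrays is narrower, leaving out an array can only add calls: without day 3 there were 134 higher and 52 lower, without day 7 there were 121 and 24, and without day 14 there were 131 and 24. Against single arrays, the sorted array had 398 genes at least 2-fold higher and 125 lower than day 3, 333 and 235 against day 7, and 280 and 135 against day 14, comparisons that share the sorted array. The 80 higher genes had a median of 7.57 on the sorted array, against 6.14 at day 3, 6.19 at day 7 and 6.20 at day 14, and 5.61 in MEF. All 3 unsorted arrays already lay above MEF for 40 of the 80, or 50% of them, against 28.5% of all measured genes, and sorted cells were at least 2-fold above MEF for 75, or 93.8%, against 5.85% of all measured genes. These genes were chosen for a high value on the sorted array, so nothing is read from the last count. In 7 of the 80 every unsorted array was under the floor, so that they could only be called higher. Xist, an RNA made from the inactive X chromosome of female cells, was among the 80. It had 9.77 in sorted cells, against 8.30, 8.12 and 8.42 at days 3, 7 and 14, and 8.95 in MEF. Whether the cultures differed in the sex of their embryos was not tested.

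**Figure D1:**
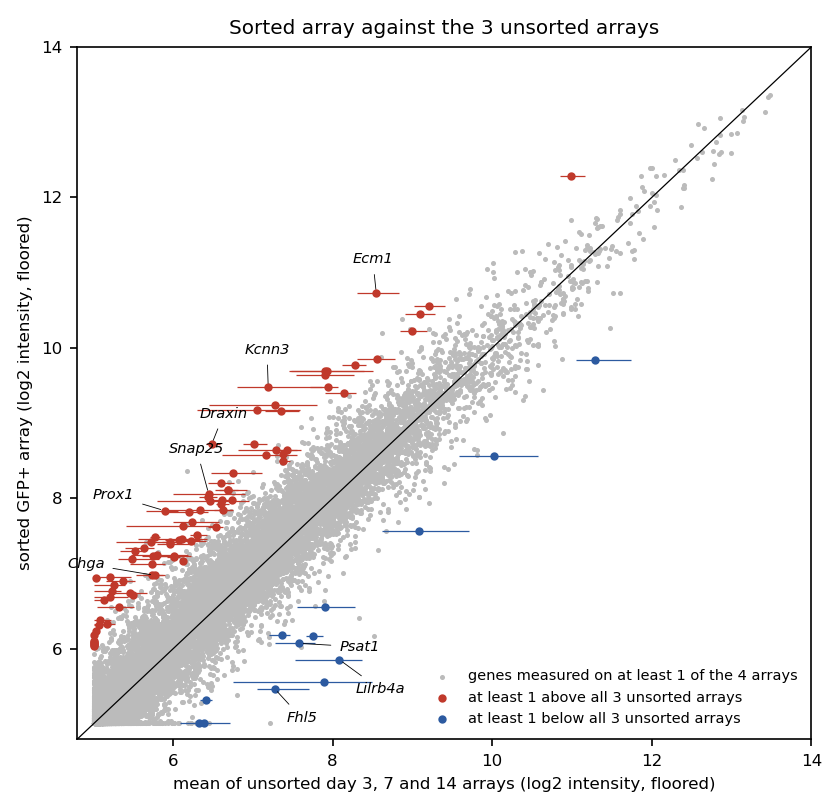
Floored log2 intensity of each measured gene on the sorted array (vertical axis) against the mean of the unsorted day 3, 7 and 14 arrays (horizontal axis), with a line of equality. Red points are the 80 genes at least 1 log2 unit above all 3 unsorted arrays and blue points the 13 at least as far below, with a bar from the lowest to the highest unsorted array.

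The 15 named genes furthest above the unsorted range were of mixed function. Draxin, a secreted repellent of growing axons, had 8.72 on the sorted array, against 6.42 at day 3, 6.59 at day 7 and 6.45 at day 14. Its gap of 2.13, or 4.37-fold, was the only one over 2 log2 units, while the 3 unsorted arrays stayed close together. Ecm1, a secreted matrix glycoprotein, had 10.73 in sorted cells, against 8.83, 8.31 and 8.50 at days 3, 7 and 14, and MEF was as high as the unsorted cells at 8.85. Prox1, a homeobox factor found in several neuron classes and in lymphatic endothelium, had 7.84 in sorted cells, against 5.96, 5.67 and 6.06 in the unsorted arrays and 3.85 in MEF. Kcnn3, a calcium-activated potassium channel, had 9.47 in sorted cells, against 7.87, 6.80 and 6.91, with day 3 the highest of the unsorted arrays. Cacna1h, a low-voltage-activated calcium channel, had 8.02 in sorted cells and 6.33, 6.43 and 6.55 in unsorted ones. For both channels the sorted value lay outside the unsorted values by more than these differed among themselves.

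A signalling ligand and an antagonist of its family stood among the same leading genes. Bmp7, a bone morphogenetic protein, had 9.17 in sorted cells, against 7.58 at day 3, 7.32 at day 7 and 7.16 at day 14, and 5.44 in MEF. Chrdl1, a secreted antagonist of these proteins, had 6.85 in sorted cells, against 5.37, 5.39 and 4.57, the last of them under the floor. Bmp7 and Chrdl1 were the 2 calls among 41 measured genes of TGF-beta, BMP and Wnt signalling. By any amount 12 of the 41 (29.3%) lay above the unsorted range and 8 (19.5%) below, near the 32.6% and 17.8% of all measured genes. Gfra3, a receptor subunit for the neurotrophic factor artemin, had 6.65 in sorted cells and at most 5.19 in unsorted ones, a gap of 1.46. Of the rest of the leading 15, gaps were 1.65 for Hid1, a Golgi protein of dense-core vesicle formation, 1.58 for Scube1, a secreted and cell-surface protein, and 1.58 for Cyfip2, a regulator of actin assembly. Miat, a long noncoding RNA, had a gap of 1.48 and Acpp, a phosphatase that releases adenosine, one of 1.43. Zfp992, a zinc finger gene, and Tmem104 had gaps of 1.66 and 1.55. The array labelled endogenous PV lay within the unsorted range for 36 of the 80 higher genes, or 45%, against 54.5% of all measured genes.

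**Figure D2:**
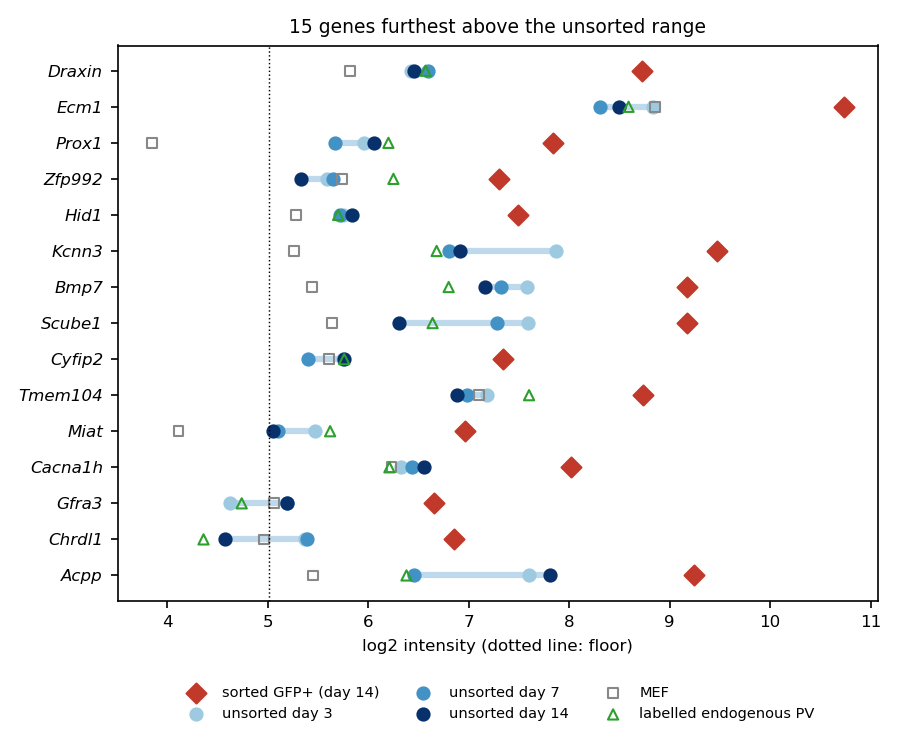
Log2 intensity of the 15 genes with the largest gap above the unsorted range, for the sorted array (diamonds), the unsorted arrays (filled circles, joined by a bar), MEF (squares) and the array labelled endogenous PV (triangles). The dotted line is the floor of 5.01, and the sorted array lies to the right of every other array in all 15.

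Markers of the labelled cell type were examined next. Pvalb, which encodes parvalbumin, had 6.29 on the sorted array, against 5.76 at day 3, 6.15 at day 7 and 5.80 at day 14, a gap of 0.14 that is under the spread between probe sets. MEF had 5.23 and the array labelled endogenous PV 5.48, so the sorted value was the highest of the 6. Gad1, a GABA-synthesising enzyme, had 4.68 in sorted cells, against 5.01, 5.12 and 4.93. Slc32a1, the vesicular GABA transporter, had 4.46 in sorted cells, against 4.52, 4.91 and 5.21. Both were under the floor in sorted cells, and Gad2, the second such enzyme, was under it on all 4 arrays. Of 9 measured genes of the GABAergic list 0 were called, and only Abat, the GABA-degrading transaminase, lay above the unsorted range, with 7.93 in sorted cells and 7.13, 7.26 and 7.10 in unsorted ones. Abat has 2 probe sets, and with the mean of probe sets 0 of 8 measured genes of the list lay above. The parvalbumin interneuron list also had 0 calls among 13 measured members, with a median difference from the unsorted mean of -0.03, which was positive after centring on housekeeping genes. By any amount 5 of the 13 (38.5%) lay above the unsorted range and 3 (23.1%) below, against 32.6% and 17.8% of all measured genes. Among those above, Nefh, the heavy neurofilament chain, had 7.22 in sorted cells, against 6.34, 6.48 and 6.23. Hapln4, a link protein of perineuronal nets, had 6.61, against 5.81, 5.50 and 6.05. Kcns3, Cox6a2 and Lgi2 lay below, with gaps of -0.23, -0.22 and -0.13. The defining GABA markers were thus under the floor in sorted cells, while Pvalb was above the floor on every array. On the array labelled endogenous PV the GABA markers were also near or under the floor, with Gad1 at 5.13, Gad2 at 4.09 and Slc32a1 at 5.05. Low values were therefore not particular to sorted cells, and these markers give no ground to call those cells GABAergic.

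Genes of other interneuron classes and of glutamatergic neurons gave 4 calls, against 0.575% of all measured genes called higher. Among 13 measured interneuron genes, Prox1 and Nos1 were called, and with the floor at percentile 75 there was 1 call. Of the 4, Nos1 and Slc17a7 were above the floor on the sorted array only, so a higher call was the only one they could get. Nos1, the neuronal nitric oxide synthase, had 6.07 in sorted cells and was under the floor on the unsorted arrays, at least 2.08-fold higher. Calb2, which encodes calretinin, had 9.88 in sorted cells, against 8.09 at day 3, 8.28 at day 7 and 9.45 at day 14, so the sorted array was only 0.43 above day 14. Cck, a neuropeptide gene, had 10.38 in sorted cells, against 10.06, 8.71 and 9.61, and Sst, the somatostatin gene, had 5.33, below the unsorted 5.55, 5.66 and 5.52. Of 6 measured genes of glutamatergic neurons, Camk2a, a synaptic kinase, had 6.98 in sorted cells, against 5.54, 5.77 and 5.90. Slc17a7, a vesicular glutamate transporter, had 6.06 in sorted cells and at most 4.88 in unsorted ones, at least 2.06-fold higher. The 2 glutamatergic calls were 0 after quantile normalization and with the floor at percentile 75.

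Secretory granule genes were read as a further group. Granins are acidic proteins that fill dense-core granules of neurons and endocrine cells. Of 14 measured genes of the granin and granule list, 13 lay above all 3 unsorted arrays by some amount and 0 below, against 32.6% above and 17.8% below among all measured genes. The count above was 12 after quantile normalization and 13 after centring on housekeeping genes. Another 7 of the 21 genes on the table were under the floor on all 4 arrays, and with no floor 15 of 21 lay above and 1 below. The gaps of Scg2, Vgf, Nell1 and Scg5 were small, between 0.06 and 0.22. Their differences from the unsorted mean were 0.26, 0.21, 0.45 and 0.57, with Scg2 and Vgf under the probe set spread of 0.34. The list's median difference from the unsorted mean was 0.67, against 0.03 over all measured genes. Chga, chromogranin A, was the 1 member called (0 after quantile normalization, 3 after housekeeping centring and 3 without day 14), with 6.98 in sorted cells, against 5.88 at day 3, 5.78 at day 7 and 5.66 at day 14. Chgb, chromogranin B, had 6.35 in sorted cells, against 4.74, 5.24 and 5.49, so that the unsorted arrays lay at or near the floor. Gal, the neuropeptide galanin, had 7.65 in sorted cells, against 5.71, 6.03 and 6.76, and Ptprn, a transmembrane protein of dense-core granules, had 9.19, against 8.21, 7.94 and 8.32. The exception was Pam, an enzyme that amidates peptides, with 8.32 in sorted cells inside the unsorted values of 7.87, 8.49 and 8.05.

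The promoter of Chgb is shown because its gene had a gap of 0.86 and its sequence holds a cAMP response element, TGACGTCA, a palindrome read the same on both strands. The window is the RefSeq promoter of 300 bases around the start of the gene on GRCm38.p6, chr2:132781392-132781691, plus strand, with the element in capitals 72 bases before the start.
Chgb: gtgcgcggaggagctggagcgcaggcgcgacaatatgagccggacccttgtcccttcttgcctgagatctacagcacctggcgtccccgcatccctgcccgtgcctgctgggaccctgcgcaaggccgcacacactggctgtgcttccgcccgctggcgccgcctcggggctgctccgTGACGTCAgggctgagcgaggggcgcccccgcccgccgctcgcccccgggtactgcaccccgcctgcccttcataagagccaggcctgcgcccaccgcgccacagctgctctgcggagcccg
Of 11 measured granule genes with a RefSeq promoter, 2 held the element, Chgb and Scg2, or 18.2%, against 3.38% of 10814 measured genes. Scg2, secretogranin II, had 6.09 in sorted cells, against 6.03 at day 3, 6.00 at day 7 and 5.46 at day 14, so the gap of the second gene was 0.06. Of 55 higher genes with a promoter, 0 held it.

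Vesicle release genes came next. Of 25 measured genes of synaptic vesicles and release, 4 were higher and 0 lower, against 0.575% of all measured genes called higher. By some amount 14 (56%) lay above the unsorted range and 3 (12%) below, against 32.6% and 17.8% of all measured genes. The 3 were Rims1, Bsn and Sh3gl2 of the presynaptic release and recycling machinery. Of the 14, Sv2b was above the floor on the sorted array only and could not lie below. The count of 4 was 2 after quantile normalization and 3 after centring on housekeeping genes. Snap25, a membrane protein of vesicle fusion, had 8.05 in sorted cells, against 6.00 at day 3, 6.44 at day 7 and 6.90 at day 14, and 4.44 in MEF. Snap91, an adaptor of vesicle recycling, had 7.24 in sorted cells, against 5.75, 5.47 and 6.19. Syt7, a calcium sensor of release, had 6.32, against 5.01, 5.12 and 5.09. Rab3a, a vesicle-bound GTPase, had 7.62, against 6.62, 6.44 and 6.57, just past the 2-fold threshold. Syp, synaptophysin, had 5.44 in sorted cells, against 5.03, 5.10 and 5.28, and Vamp2, a vesicle fusion protein, had 7.51, inside the unsorted 6.82, 7.58 and 7.04.

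Of 27 measured pan-neuronal genes, 19 lay above the unsorted range and 3 below, 70.4% and 11.1%, against 32.6% and 17.8% of all measured genes. The list's median difference was 0.47. Mapt and Elavl2, among the 19, were above the floor on the sorted array only and could not lie below. The call was reached by 1 of the 27, by 4 without day 3, and by 3 without day 7, without day 14 or after centring on housekeeping genes. Ina, a neuronal intermediate filament, had 6.90 in sorted cells, against 5.16 at day 3, 5.52 at day 7 and 5.46 at day 14. Tubb3, a neuronal tubulin, fell just short, with 7.16 in sorted cells, against 5.86, 6.17 and 5.77, a gap of 0.99. Map2, which binds microtubules in dendrites, had 7.19 in sorted cells, against 6.23, 6.38 and 6.07, but MEF had 7.20. Uchl1, a ubiquitin hydrolase abundant in neurons, had 6.79, against 5.76, 5.61 and 5.91. Nefl, the light neurofilament chain, had 6.41, against 5.27, 4.93 and 5.76. Gap43, a growth cone protein, lay below the range with Stmn4 and Nsg1, at 5.99 in sorted cells, against 7.68 at day 3, 6.89 at day 7 and 6.06 at day 14. Dcx, a microtubule protein of migrating neurons, was under the floor on all 4 arrays, at 4.59 in sorted cells, and Rbfox3, a nuclear marker of mature neurons, had 5.78 inside the unsorted 5.37, 5.76 and 6.06.

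**Figure D3:**
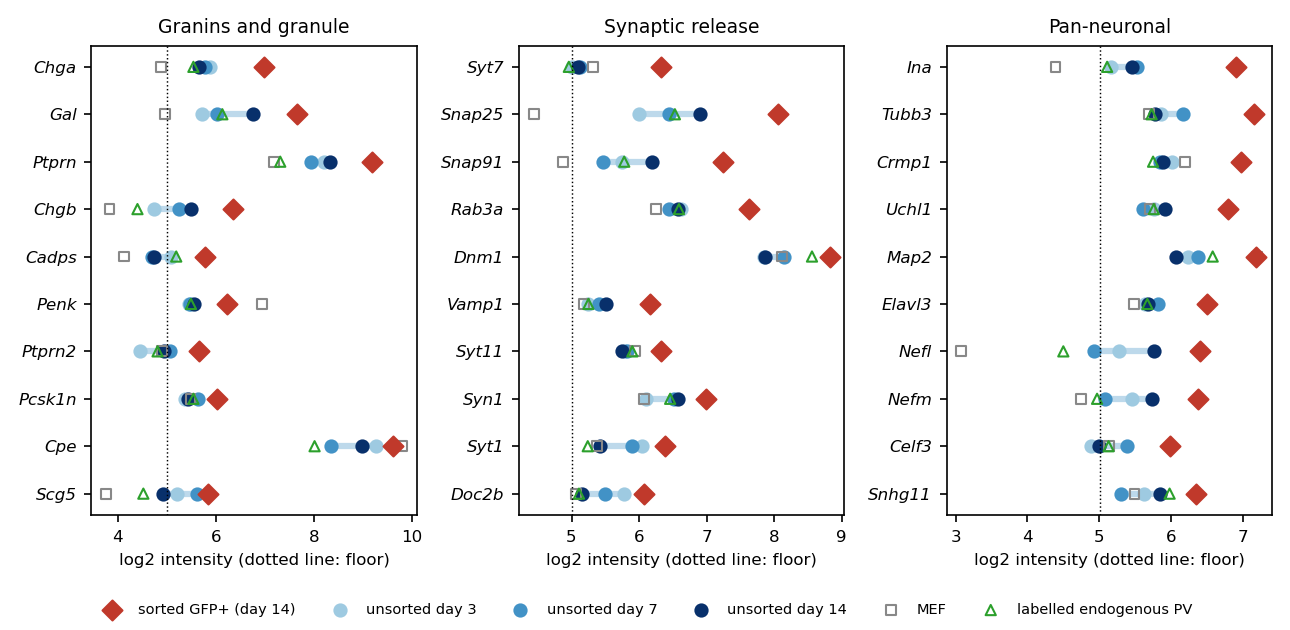
Log2 intensity of the 10 members with the largest gap above the unsorted range in the granin and granule, synaptic release and pan-neuronal lists, with symbols as in the plot of the leading 15 genes. In each gene shown the sorted array (diamond) lies to the right of the bar of the 3 unsorted arrays, by 1.15 log2 units for Snap25 and 1.10 for Chga.

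Over the 13 neuronal lists, with each gene counted once, 15 of 238 measured genes were higher and 0 lower, 6.3%, against the 0.575% of all measured genes. By any amount 105 (44.1%) were above the unsorted range and 33 below, against 32.6% above and 17.8% below among all measured genes. The share above depended on level. It was 38% among all measured genes with a mean from 6 to under 8, and 27.3% among those under 6. Against the band from 6 to under 8, the excess of the neuronal lists by any amount was smaller than against all measured genes. The GABAergic, parvalbumin and potassium channel lists averaged under 6 on every array. No share matched to the levels of the neuronal genes was computed. Of the 238, 9 were above the floor on the sorted array only, 2 of them among the 15. Receptors for guidance cues were among the 15. Unc5c, a netrin receptor, had 7.81 in sorted cells, against 6.44 at day 3, 6.24 at day 7 and 5.93 at day 14. Plxna2, a semaphorin co-receptor, had 7.92, against 6.58, 6.70 and 6.54, and Robo1, a receptor for Slit proteins, had 9.85, against 8.78, 8.58 and 8.31. Dll3, a Notch ligand expressed by neuronal precursors, had 7.40, against 5.79, 5.84 and 6.26, and was also called. Hes6, an inhibitor of Hes1 that is active in neurogenesis, was not called, with 8.07, against 7.21, 6.50 and 7.06. Of 26 measured members of the potassium channel list, which does not hold Kcnn3, 0 were called, and of 16 GABA and glutamate receptors 0.

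Genes of the starting fibroblasts were then examined. Of 31 measured genes of fibroblast identity 0 were called, and 4 (12.9%) lay above and 8 (25.8%) below the unsorted range. Among all measured genes 32.6% lay above and 17.8% below. The list's median difference was -0.04, which was positive after centring on housekeeping genes. Atl1 entered this list only because the listed name Fsp1 was read as its older name. It lay inside the range and is not counted on as a fibroblast gene. Col1a1, which encodes a fibrillar collagen chain, had 12.39 in sorted cells, against 11.41 at day 3, 12.28 at day 7 and 12.25 at day 14. Vim, an intermediate filament of mesenchymal cells, had 11.20, against 11.41, 11.37 and 11.61. Contractile genes went both ways. Of 17 measured genes of smooth muscle and myofibroblasts, 8 lay below the unsorted range and 3 above, and 1 was called (2 without day 7, 0 after housekeeping centring). These were 47.1% below and 17.6% above, against 17.8% and 32.6% of all measured genes. Itga8, an integrin chain, had 6.55 in sorted cells, against 7.86, 7.56 and 8.29, and Tagln, an actin-binding protein of smooth muscle, had 9.44, against 10.78, 10.35 and 10.76. Acta2, smooth muscle actin, had 12.24, against 12.97, 12.55 and 12.74. Des, the muscle filament desmin, lay above the range, with 8.42 in sorted cells, against 7.86, 7.85 and 7.09, as did Smtn and Synpo2, with gaps of 0.37 and 0.31.

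Markers of other cells that such cultures can hold were read on the same arrays. For the neuronal groups, the pericyte list had 1 higher and 0 lower among 8 measured members, Rgs5, a regulator of G protein signalling, with 8.21 in sorted cells and 6.60, 6.76 and 6.44 in unsorted ones, but its second probe set did not lie above the range. By any amount 4 of the 8 lay above the unsorted range and 1 below, and the list's summed linear intensity was 1119 in sorted cells and between 636 and 1017 in unsorted ones. Astrocyte genes had 3 of 9 above and 0 below, with a median difference of 0.21, and cartilage and bone genes 3 of 6 above and 0 below, with 0.30, but -0.02 with no floor. Of 10 oligodendrocyte and Schwann cell genes 3 lay above and 0 below, of 7 endothelial genes 2 and 2, and of 12 skeletal and cardiac muscle genes 3 and 1. None of these last 5 lists had a call. Among the genes counted above, Phex (cartilage and bone), Cspg5 (oligodendrocyte), Pecam1 (endothelial) and Actc1 (muscle) were above the floor on the sorted array only. These genes could not lie below the range. Among all measured genes 32.6% lay above the range and 17.8% below. The shares above were 50% for pericyte and for cartilage and bone genes, lists with few members. They were 33.3% for astrocyte, 30% for oligodendrocyte and Schwann cell, 28.6% for endothelial and 25% for muscle genes, near or under that of all genes. The part of these lists in the neuronal results was not tested. The adipocyte list had 1, Pnpla2, a triglyceride lipase, with 7.98 in sorted cells, against 6.71, 6.41 and 6.72. In bulk RNA, fewer cells of a type and less RNA per cell cannot be told apart.

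Of 23 measured macrophage genes, 8 lay below the unsorted range, or 34.8% against 17.8% of all measured genes, 2 lay above it, and 1 was called. Without day 3, 16 lay below and 3 were called. Cd53, a leukocyte tetraspanin, had 4.88 in sorted cells, under the floor, against 6.09 at day 3, 6.37 at day 7 and 6.71 at day 14, at least 2.12-fold lower. Lyz2, lysozyme, had 6.03 in sorted cells, against 6.76, 7.99 and 8.06, and 9.78 in MEF. Summed over the list on the linear scale, intensity was 965 in sorted cells and between 955 and 1479 in unsorted ones, so the sum did not leave the unsorted range. Cd68, a lysosomal protein of macrophages, went the other way, with 7.19 in sorted cells, against 5.76, 6.32 and 6.79. Csf1r, the receptor that macrophages need to survive, had 5.15 in sorted cells, against 5.14, 5.70 and 5.12. Lilrb4a, an inhibitory receptor of myeloid cells, was the gene furthest below the range, with 5.86 in sorted cells, against 7.53, 8.36 and 8.36, and Ccl3, a chemokine made by macrophages, had 5.55, against 6.75, 8.43 and 8.49. Their part in the other results was not tested.

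Other genes called lower were of mixed function. Fhl5, a LIM-domain protein, had 5.47 in sorted cells, against 7.05 at day 3, 7.06 at day 7 and 7.70 at day 14, while MEF had 5.35, close to the sorted cells. Ifi204, an interferon-inducible protein, had 6.16, against 7.67, 7.70 and 7.87, although 0 of 31 measured interferon-response genes were called (1, higher, without day 14). Gnpnat1, an enzyme of hexosamine synthesis, had 7.56, against 9.71, 8.62 and 8.94. Gar1, a protein of small nucleolar ribonucleoproteins, had 5.32, against 6.34, 6.39 and 6.49. Cav1, the main caveolar coat protein, had 6.18, against 7.20, 7.44 and 7.46, and F3, tissue factor, had 8.56, against 9.59, 9.91 and 10.57. Tpm4, a tropomyosin, Epb41l4aos and Anxa1, a phospholipid-binding protein, lay just short of 2-fold, with gaps of -0.99, -0.92 and -0.91.

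The integrated stress response reacts to amino acid shortage and misfolded protein through the factor ATF4. Of 29 measured genes of the endoplasmic reticulum and integrated stress list, 16 lay below the unsorted range, 13 inside it and 0 above, against 17.8% below among all measured genes, and 1 was called. The count below was 20 after quantile normalization and 10 after centring on housekeeping genes. Psat1, an enzyme of serine synthesis, had 6.07 in sorted cells, against 7.78 at day 3, 7.28 at day 7 and 7.69 at day 14. Phgdh, which starts that pathway, had 5.10, against 6.66, 5.90 and 6.15, and Asns, asparagine synthetase, had 8.10, against 9.01, 8.69 and 9.04. Atf4 itself had 7.85, against 8.91, 8.42 and 8.75. Hspa5, the main chaperone of the endoplasmic reticulum, had 8.82, inside the unsorted 9.84, 8.39 and 8.98. The list median was -0.99 against day 3, -0.08 against day 7 and -0.28 against day 14, and without day 3 the median difference from the unsorted mean was -0.15 in place of -0.50. Without day 7, 23 lay below the range and 5 were called.

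Promoters of 3 of these genes are shown because each gene lay below the unsorted range and each sequence holds the C/EBP-ATF composite element, TGATGNAA on either strand, in capitals. The windows are the RefSeq ones on GRCm38.p6, Asns at chr6:7693160-7693459 on the minus strand, Chac1 at chr2:119350992-119351291 on the plus strand and Trib3 at chr2:152344011-152344310 on the minus strand.
Asns: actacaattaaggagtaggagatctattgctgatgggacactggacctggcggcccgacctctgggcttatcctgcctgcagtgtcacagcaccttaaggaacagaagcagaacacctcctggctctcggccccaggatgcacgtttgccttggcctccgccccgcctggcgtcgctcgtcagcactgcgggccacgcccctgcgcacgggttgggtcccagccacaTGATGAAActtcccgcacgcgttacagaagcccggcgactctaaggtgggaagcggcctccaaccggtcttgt
Chac1: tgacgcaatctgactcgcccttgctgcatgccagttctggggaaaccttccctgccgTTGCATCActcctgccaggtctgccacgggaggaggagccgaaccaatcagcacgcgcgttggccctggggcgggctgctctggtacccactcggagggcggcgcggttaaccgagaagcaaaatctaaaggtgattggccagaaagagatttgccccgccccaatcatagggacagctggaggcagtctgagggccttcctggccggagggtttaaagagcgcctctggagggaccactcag
Trib3: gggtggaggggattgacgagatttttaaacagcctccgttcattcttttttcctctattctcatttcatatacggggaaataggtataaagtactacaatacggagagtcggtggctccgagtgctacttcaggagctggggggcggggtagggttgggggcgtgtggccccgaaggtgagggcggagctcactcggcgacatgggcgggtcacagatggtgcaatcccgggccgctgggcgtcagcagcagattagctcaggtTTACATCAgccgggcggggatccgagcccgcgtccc
The element was in 8 of 25 list members with a promoter, or 32%, against 2.8% of all measured genes. The list was drawn up from genes of this response, so that share is not independent evidence. Of those 8 genes, 5 lay below the unsorted range, by 0.59 log2 units or less, while Herpud1, Slc7a11 and Vldlr lay inside it. Of the whole measured list 55.2% lay below. Chac1, an enzyme that degrades glutathione, had 5.30 in sorted cells, against 6.22 at day 3, 5.61 at day 7 and 6.03 at day 14. Trib3, a pseudokinase, had 6.56, against 7.65, 6.82 and 7.57. Psat1 and Phgdh, with larger gaps, did not hold these letters in the window.

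Of 31 measured ribosomal protein genes, 21 lay below the unsorted range, or 67.7%, and 0 above, while 0 were called. The count below was 20 after quantile normalization and 16 after centring on housekeeping genes, and the median difference was -0.31. The list averaged 8.39 in sorted cells and between 8.72 and 8.77 in unsorted ones, and among all measured genes with a mean from 8 to under 10, 20.3% lay below the range. That share was 33.3% among genes with a mean of 10 or more. Of 24 measured housekeeping genes, 10 (41.7%) lay below the range and 5 (20.8%) above, so lower values were not particular to ribosomal proteins. Rplp0, of the ribosomal stalk, had 7.27 in sorted cells, against 7.94 at day 3, 8.04 at day 7 and 7.96 at day 14, and Rpl13 had 9.72, against 10.50, 10.44 and 10.33. Cell cycle genes had 11 of 44 below the range, or 25% against 17.8% of all measured genes, 0 above and 0 called. Their median was 0.00 against day 3 and against day 14 and -1.04 against day 7, the unsorted array with the highest values. Mki67, a proliferation marker, had 7.77 in sorted cells, against 7.24, 8.85 and 7.14.

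**Figure D4:**
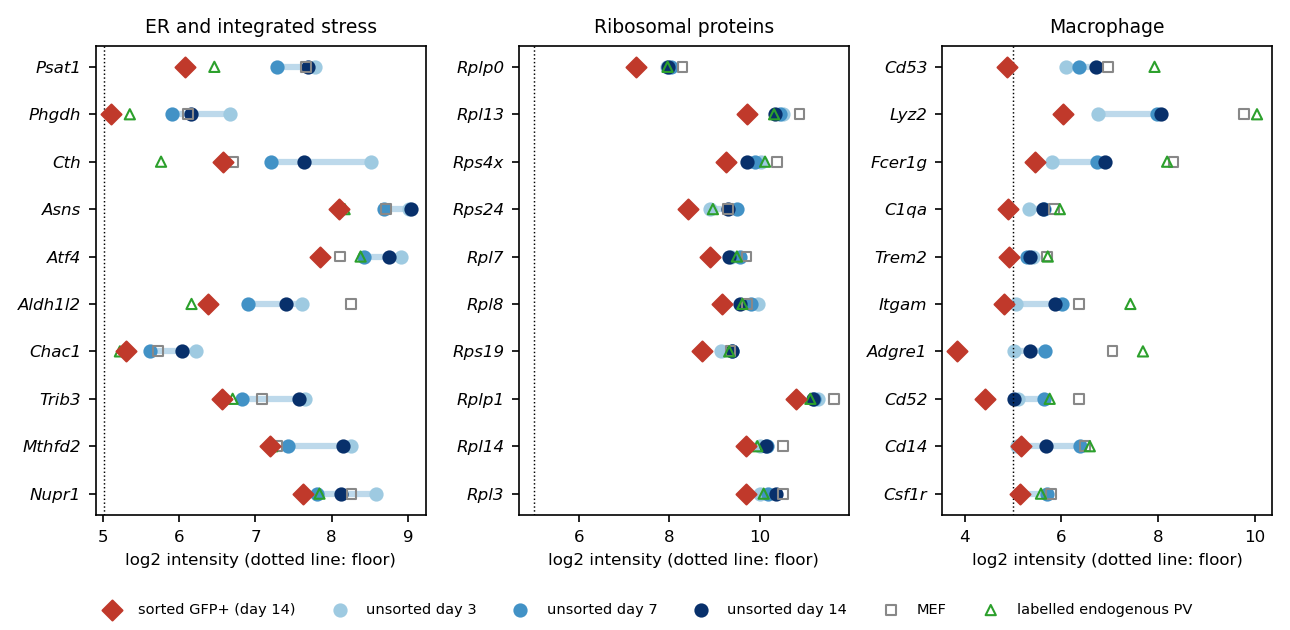
Log2 intensity of the 10 members furthest below the unsorted range, or nearest to its low end, in the stress, ribosomal protein and macrophage lists, with symbols as in the plot of the leading 15 genes. Sorted cells (diamonds) lie left of the unsorted bar with gaps of -1.21 for Psat1 and -0.68 for Rplp0.

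**Figure D5:**
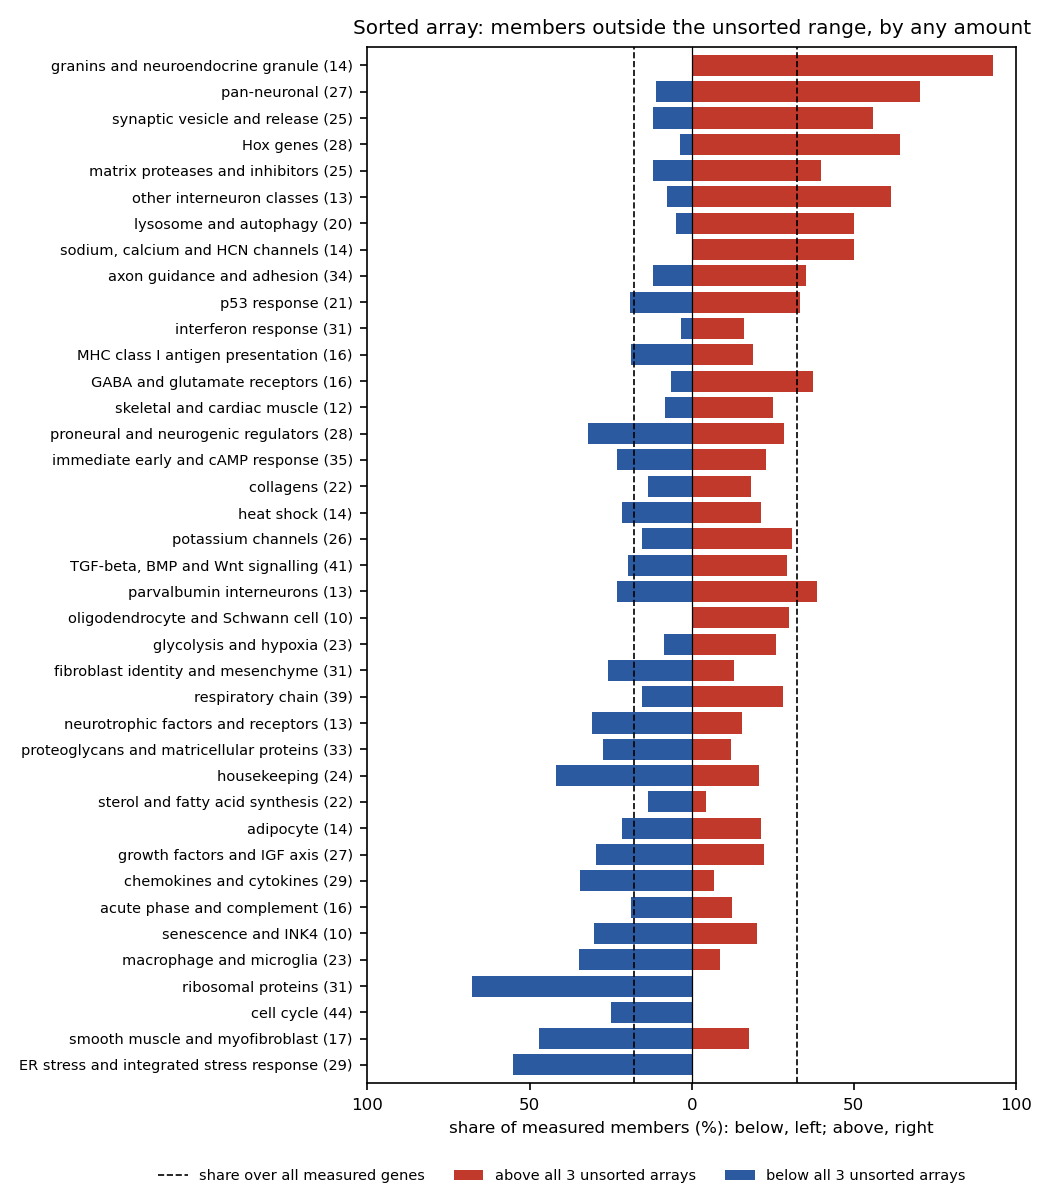
Share of measured members that lay above (red, right) or below (blue, left) all 3 unsorted arrays by any amount, for every list with at least 10 measured members, number in brackets, ordered by median difference. Dashed lines mark the shares over all measured genes, 32.6% above and 17.8% below.

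Immediate early genes, which respond within minutes to stimulation, and heat shock genes were read as well. Of 35 measured immediate early and cAMP response genes 0 were called, with 8 (22.9%) above and 8 (22.9%) below the range. Of 14 heat shock genes 0 were called, with 3 (21.4%) on either side. Among all measured genes 32.6% lay above and 17.8% below. Fos, an immediate early factor, had 6.33 in sorted cells, against 5.48 at day 3, 5.48 at day 7 and 7.10 at day 14. Egr1, another, had 7.43, against 5.62, 5.69 and 8.33. Sorted cells thus lay between the early arrays and day 14 for both.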

How the data were processed

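The authors deposited 1 table of log2 values for 41345 probe sets on 6 Affymetrix arrays, made from 6 µg of total RNA per sample, per the labels' protocols. Per the submitters' processing notes, the software was Affymetrix Expression Console. Version, summarisation method and genome build: not given in the sources used here. That deposited values are log2 follows from their range. Probe sets numbered below the first annotated one (5333) were treated as controls. Probe sets with exactly 1 gene symbol numbered 23521, those with more than 1 numbered 1814 and those with none 10677, and 23328 Entrez identifiers matched a RefSeq table of GRCm38.p6, which changed 0 symbols. Of several probe sets (1082 genes), the one brightest on average across all 6 arrays stood for the gene. Arrays give no depth, and their number, 1 per group, limits the precision.

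Differences and counts were computed in Python 3.11.15 with pandas 2.3.3 and numpy 2.4.6 and tested on simulated data. Members and the 50 gene lists were chosen with earlier results of these data known, so no list is independent evidence. Genes were named as the 15 with the largest gap in each direction (genes without a proper name, and genes whose probe sets disagreed, were left out), up to 4 members of each list with the largest gap, and a preset list. Xist and further list members given here were chosen after their values were seen. Promoters were taken from RefSeq (GRCm38.p6), both strands searched, several starts of a gene pooled.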

Additional observations from a re-analysis of the deposited data

How the results depend on the processing

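The counts of 80 higher and 13 lower genes became 60 and 14 after quantile normalization, which keeps 60 of the 80 and all 13, and 116 and 10 after centring on housekeeping genes, which moved the median of all measured genes to 0.14. With no floor they were 88 and 31, with the floor at percentile 75 (6.58) 40 and 4, and with the mean of probe sets 79 and 14. Against the mean of the unsorted arrays instead of their range, 210 were higher and 64 lower. A threshold of 2 log2 units left 1 and 0, and one of 0.58 gave 433 and 97. Leaving out 1 unsorted array gave 121 to 134 higher and 24 to 52 lower, because fewer arrays have a narrower range. Taking probe sets and floor from the 4 arrays, an alternative added after the data were seen, gave 80 and 13. The median of the cartilage and bone list was -0.02 with no floor, and that of the prolactin and trophoblast list ran between -0.55 and 0.01 when an array was left out, positive without day 14, and the cause was not tested. The stress list's median was -0.15 without day 3. No called gene that is named here changed direction. No paired analysis was possible because each group had 1 array. Without replicates, error between arrays and cultures has no estimate, and differences near the probe set spread of 0.34 cannot be told from error.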

Other observations

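Hox genes, the regulators of body axis position, were more often above than below the unsorted arrays. Of 28 measured, 18 (64.3%) lay above the range, 1 below and 0 were called, against 32.6% above and 17.8% below among all measured genes, and the count above was 14 after quantile normalization. Hoxa2 had 6.91 in sorted cells, against 6.15 at day 3, 6.04 at day 7 and 5.88 at day 14. Hoxa5 had 7.73, against 7.22, 6.95 and 6.41. Among 20 lysosome and autophagy genes 10 (50%, against the same 32.6%) lay above the range, 1 below and 0 were called. Grn, the lysosomal protein progranulin, had 11.13 in sorted cells, against 9.89, 9.90 and 10.24.

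ND6, a complex I subunit encoded in the mitochondrial genome, had 9.84 in sorted cells, against 11.07 at day 3, 11.05 at day 7 and 11.74 at day 14, and 10.03 on the array labelled endogenous PV. The other mitochondrially encoded genes read, chosen after ND6 was seen, had gaps no larger than the -0.19 of COX1, with 13.13 in sorted cells and 13.48, 13.46 and 13.32 in unsorted ones.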
